A study of Mus musculus with 16 samples.

Results

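Activity-regulated genes are the genes that neurons switch on after synaptic input, and 41 of them were examined here among the 21999 genes listed. They were chosen by name, as immediate early genes, later effectors and genes of the same families known to respond to activity. The choice was made with earlier results of these data known, so counts of members carry no test. All 41 were found. The libraries came from the left hemisphere of male mice aged postnatal day 47, either hippocampus or cortex, with a conditional knockout of Foxp1 (Foxp1cKO), a forkhead transcription factor, in forebrain pyramidal neurons, or from littermate controls. There were 4 libraries in each of 4 groups: control hippocampus, knockout hippocampus, control cortex and knockout cortex. The sources used here do not state the Cre line, the part of Foxp1 that was deleted, or which tissues share a mouse. The knockout is described as one of pyramidal neurons, and RNA of interneurons and glia of the dissected tissue is in the same libraries. Whether those other cells keep the gene was not tested.

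When a synapse is active, calcium enters the neuron and signals through calmodulin-dependent kinases, cAMP and the MAP kinase pathway to transcription factors that are already present, chiefly CREB, SRF and MEF2. These switch on a rapid set of genes within minutes, among them Fos, Egr1, Nr4a1 and Npas4, most of which encode transcription factors. A second set, including Bdnf, Nptx2 and Plk2, encodes proteins that act on the synapse and rises later or more slowly. In hippocampus and cortex these genes serve as markers of recently active neurons and are needed for lasting memory, and their transcripts are short-lived, so that levels also follow what an animal did shortly before dissection.

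The promoters of several members hold the cAMP response element, the site of CREB, or its shorter core. The windows shown are those of some genes that moved across libraries or with the knockout. The part of the element in those moves was not tested. RefSeq promoter windows of 300 bases, from 250 bases before to 50 after the start, matched 30 of the 41 members and gave 48 windows (build GRCm38.p6). The full palindrome TGACGTCA was found in the windows of Btg2, Dusp1, Maff and Plk2, or 8.33% of the members' windows against 1.79% of the 32851 windows of all genes. The shorter core TGACG, read on both strands and counted inside each palindrome as well, was found for 19 members, in 45.8% of the members' windows against 20.8% of all windows. Npas4, which was called in neither genotype comparison, is among the 19. The CArG box of the serum response element was found for Dusp5 and Egr2 (10.4% of members' windows, several of them overlapping windows of Egr2, against 1.63% of all). The AP-1 site TGANTCA was in 2.08% of members' windows against 7.81% of all, the forkhead site TGTTTAC in 4.17% against 3.65% (Junb and Pim1) and TATAAA in 16.7% against 13.6%. A match is a run of letters and was not tested as a binding site.

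The windows below are printed 5′ to 3′ on the strand of the gene, with TGACG or its reverse complement, and in Dusp5 also the CArG boxes, in capitals. The genes Fos (chr12:85473640-85473939, + strand), Btg2 (chr1:134079106-134079405, - strand), Dusp1 (chr17:26508423-26508722, - strand) and Nr4a1 (chr15:101266596-101266895, + strand) are rapid genes; Fos, Dusp1 and Nr4a1 stood high in the same few libraries of both genotypes in each tissue, and Btg2 did so in cortex.
Fos: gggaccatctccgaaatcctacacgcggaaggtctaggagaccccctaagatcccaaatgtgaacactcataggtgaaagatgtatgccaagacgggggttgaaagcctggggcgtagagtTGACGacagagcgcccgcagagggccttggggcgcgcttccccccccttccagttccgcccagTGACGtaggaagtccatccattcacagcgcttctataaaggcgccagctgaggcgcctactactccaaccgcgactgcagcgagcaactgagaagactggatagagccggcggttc
Btg2: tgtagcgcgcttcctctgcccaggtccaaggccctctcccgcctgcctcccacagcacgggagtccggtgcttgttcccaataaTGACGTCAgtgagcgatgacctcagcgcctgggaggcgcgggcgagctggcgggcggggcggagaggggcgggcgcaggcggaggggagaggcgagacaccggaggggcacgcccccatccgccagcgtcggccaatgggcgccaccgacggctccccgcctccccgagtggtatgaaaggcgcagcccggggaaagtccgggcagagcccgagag
Dusp1: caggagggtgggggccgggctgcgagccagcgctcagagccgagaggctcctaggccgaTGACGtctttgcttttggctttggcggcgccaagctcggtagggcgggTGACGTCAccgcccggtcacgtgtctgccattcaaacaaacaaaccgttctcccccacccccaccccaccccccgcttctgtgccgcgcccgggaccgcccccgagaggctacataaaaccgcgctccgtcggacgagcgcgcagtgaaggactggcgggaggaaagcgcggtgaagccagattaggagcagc
Nr4a1: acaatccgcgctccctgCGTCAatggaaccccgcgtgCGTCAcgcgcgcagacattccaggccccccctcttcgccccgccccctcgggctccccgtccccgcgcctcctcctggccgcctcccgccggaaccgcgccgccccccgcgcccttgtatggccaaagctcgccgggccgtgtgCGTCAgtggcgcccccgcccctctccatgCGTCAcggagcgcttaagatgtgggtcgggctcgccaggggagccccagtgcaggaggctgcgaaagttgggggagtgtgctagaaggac

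The genes Plk2 (chr13:110394794-110395093, + strand), Nr4a3 (chr4:48045055-48045354, + strand) and Ptgs2 (chr1:150099781-150100080, + strand) responded to the knockout differently in the 2 tissues, and Dusp5 (chr19:53528895-53529194, + strand) was lower in knockout hippocampus. No window was used for Rasd1, Nptx2, Dusp4 or Arc.
Plk2: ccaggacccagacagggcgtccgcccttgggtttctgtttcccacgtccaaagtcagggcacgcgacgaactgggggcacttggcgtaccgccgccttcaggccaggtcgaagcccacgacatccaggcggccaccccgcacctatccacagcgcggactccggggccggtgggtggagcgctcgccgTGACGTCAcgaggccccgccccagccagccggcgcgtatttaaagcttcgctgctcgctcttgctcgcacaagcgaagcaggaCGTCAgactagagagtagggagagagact
Nr4a3: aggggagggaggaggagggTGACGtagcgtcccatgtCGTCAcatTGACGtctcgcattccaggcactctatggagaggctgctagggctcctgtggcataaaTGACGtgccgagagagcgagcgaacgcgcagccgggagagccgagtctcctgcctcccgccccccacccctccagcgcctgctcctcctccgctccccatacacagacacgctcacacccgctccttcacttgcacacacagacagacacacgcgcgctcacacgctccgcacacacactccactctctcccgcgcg
Ptgs2: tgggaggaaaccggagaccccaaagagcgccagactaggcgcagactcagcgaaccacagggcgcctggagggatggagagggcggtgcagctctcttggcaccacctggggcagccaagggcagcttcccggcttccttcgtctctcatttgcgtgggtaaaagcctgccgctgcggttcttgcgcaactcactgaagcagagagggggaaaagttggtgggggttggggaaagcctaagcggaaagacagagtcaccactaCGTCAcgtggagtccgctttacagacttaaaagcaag
Dusp5: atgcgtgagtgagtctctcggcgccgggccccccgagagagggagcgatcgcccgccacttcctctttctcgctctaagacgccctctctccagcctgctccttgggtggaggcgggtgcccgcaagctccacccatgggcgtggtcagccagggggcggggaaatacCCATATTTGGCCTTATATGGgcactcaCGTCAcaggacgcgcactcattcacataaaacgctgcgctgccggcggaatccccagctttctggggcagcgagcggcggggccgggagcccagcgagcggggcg

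Levels are counts-per-million (CPM) of the reads assigned to listed genes, and libraries are named by genotype and by the DJ number of their titles, whose meaning is not given. Depth was 6943136 to 14817870 reads. Foxp1 was lower in every knockout than in any control of its tissue: in hippocampus it was at 52.3% and in cortex at 39.9% of the control mean (two-sided exact permutation test, p = 0.0286 in each tissue, the smallest value that 4 against 4 libraries allow, and 0.0571 without any 1 library). The tissue labels matched their markers. A list of 10 markers of hippocampal subfield neurons summed to between 475 and 622 CPM in hippocampus, and in cortex to 69.3 to 76.0 CPM in controls and 104 to 122 CPM in knockouts, with at most 2 markers at 0 in a library. The 11 markers of cortical neurons summed to between 1322 and 1517 CPM in cortex, and in hippocampus to 466 to 521 CPM in controls and 530 to 678 CPM in knockouts. Both lists thus differed by genotype without overlap in the tissue they do not mark. The 5 markers of pyramidal neurons, the cells in which the knockout is described, were also summed. In hippocampus the sum was 4173 to 5021 CPM in controls and 3693 to 4052 CPM in knockouts, with no overlap. In cortex it was 4385 to 4979 CPM and 4258 to 4404 CPM. Markers of other cells also moved with genotype in cortex: 10 striatal markers summed to 237 to 477 CPM in controls and 546 to 824 CPM in knockouts, and 8 myelin markers to 5006 to 6858 CPM in controls and 2974 to 4013 CPM in knockouts, with no overlap. In hippocampus the striatal sum was 117 to 778 CPM in controls and 422 to 924 CPM in knockouts, the myelin sum 4973 to 12988 CPM and 6203 to 8839 CPM, and 6 choroid plexus markers summed to 564 to 1039 CPM and 925 to 1804 CPM. No marker of these 3 lists was at 0 in a hippocampal library, nor any striatal or myelin marker in a cortical one. In cortex 9 endothelial and mural markers summed to 488 to 608 CPM in controls and 433 to 491 CPM in knockouts. In hippocampus 6 astrocyte markers summed to 2036 to 2505 CPM in controls and 2425 to 2810 CPM in knockouts. Sums of interneuron, microglial, meningeal and blood markers overlapped between genotypes in both tissues. The part of these cells in the results on the members was not tested. In bulk tissue fewer cells of a type and less RNA per cell cannot be told apart.

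Several rapid genes stood high in the same libraries of both genotypes. In cortex, control DJ3 and knockouts DJ1 and DJ2, and in hippocampus, control DJ17 and knockouts DJ15 and DJ16, which carry the 3 lowest numbers of each tissue, held their highest values. Fos, the prototype immediate early gene and a subunit of the AP-1 transcription factor, stood at 24.8, 6.09, 8.62 and 12.0 CPM in cortical controls DJ3, DJ6, DJ7 and DJ8, and at 40.3, 24.1, 8.42 and 8.40 CPM in cortical knockouts DJ1, DJ2, DJ4 and DJ5. The 3 lowest-numbered cortical libraries were above the other 5, across genotype, and the genotypes overlapped. In hippocampus Fos stood at 10.4, 3.58, 4.51 and 5.20 CPM in controls DJ17, DJ20, DJ21 and DJ22 and at 19.8, 19.6, 5.32 and 4.55 CPM in knockouts DJ15, DJ16, DJ18 and DJ19. The same pattern held: DJ15, DJ16 and DJ17 were above all others. These numbers are those of DJ1, DJ2 and DJ3 plus 14, with matching genotypes. Whether such libraries share a mouse is not stated, so the 2 tissues may not be independent here. Values below follow this order of libraries.

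Counted over the members, 9 of 40 measured in hippocampus were higher in all 3 of DJ15, DJ16 and DJ17 than in any of the other 5 libraries, namely Fos, Junb, Egr1, Egr2, Egr4, Nr4a1, Dusp1, Sik1 and Tiparp. Of the 13899 genes tested, 4.24% did so. The reverse held for 2 members, Crem and Inhba, against 2.79% of all genes. In cortex 15 of 39 measured members were higher in all 3 of DJ1, DJ2 and DJ3, namely Fos, Fosl2, Junb, Jund, Egr4, Nr4a1, Dusp1, Dusp5, Dusp6, Ier3, Btg2, Sik1, Klf4, Gadd45g and Tiparp, against 5.76% of 13713 genes. Another 2 members, Nptx1 and Crem, were lower in all 3, against 3.49% of all genes. The 7 genes on both lists of higher members were Fos, Junb, Egr4, Nr4a1, Dusp1, Sik1 and Tiparp. These libraries were noticed from the members' own values, so the counts describe them and carry no test. Because they make up 2 of 4 knockouts and 1 of 4 controls in each tissue, genotype and whatever sets them apart are not balanced. The genotype and tissue results are therefore also given without them. The p-values of those fits are descriptive only, since the libraries left out were picked from the values tested.

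**Figure D1:**
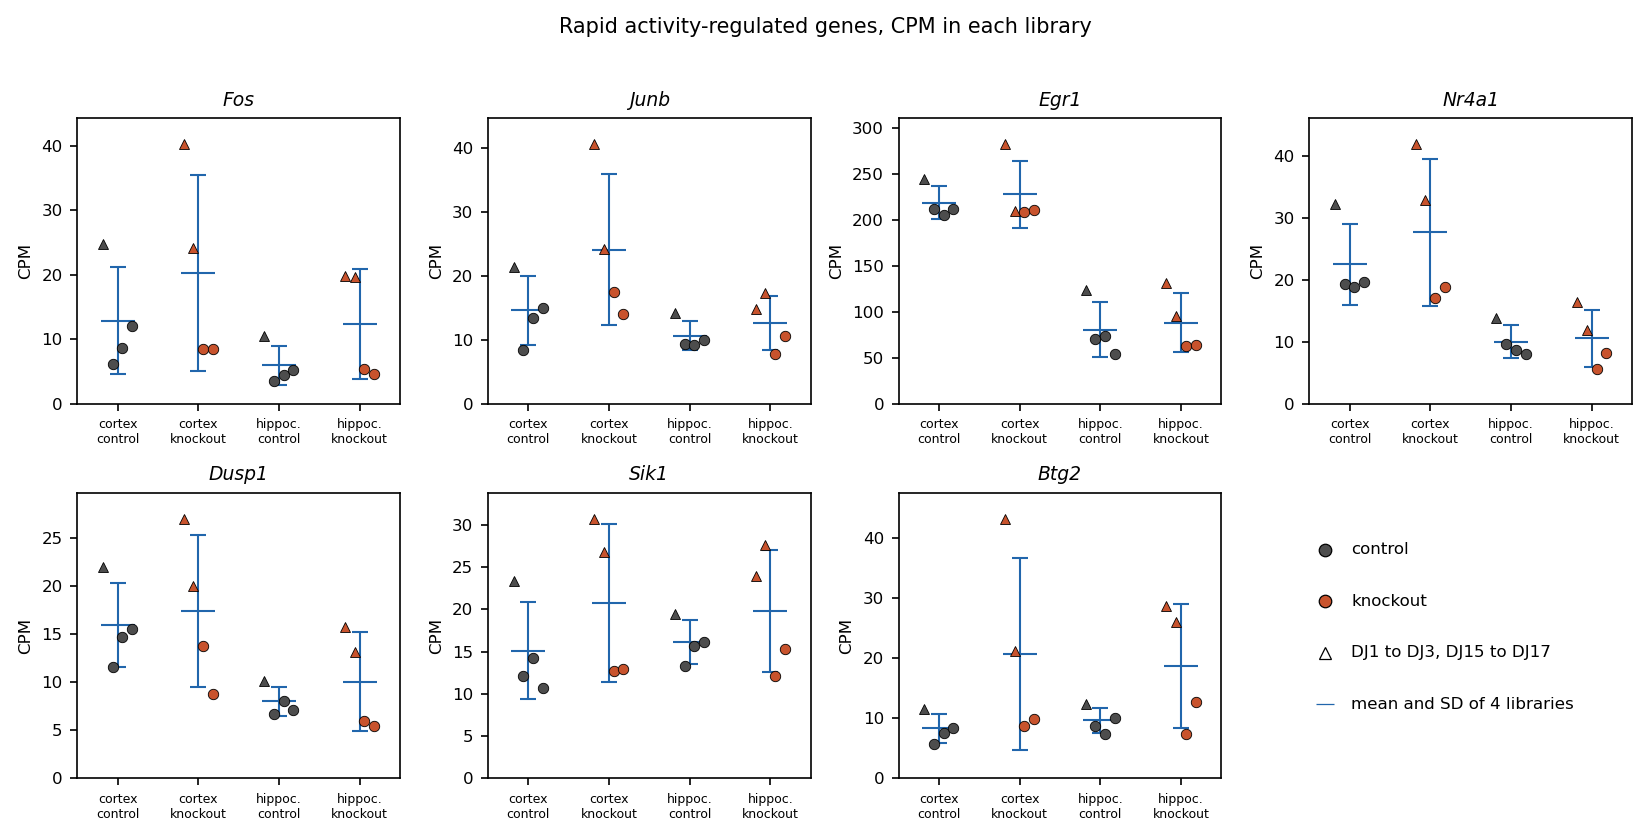
Level in CPM (vertical axis, linear from 0) of 7 rapid genes in each of the 16 libraries by tissue and genotype; triangles mark DJ1 to DJ3 and DJ15 to DJ17, circles the other libraries, and blue bars the mean and SD of 4 libraries. For Fos the triangles lie at 24.1 to 40.3 CPM in cortex and 10.4 to 19.8 CPM in hippocampus, above every circle of the same tissue and in both genotypes.

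The spread was not the same for every library of the 3. Knockout DJ1 held the highest value for 21 of the 39 members measured in cortex, when it held the highest for 23.3% of all genes. Its members lay on average 0.62 (log2) above the mean of the cortical controls. In hippocampus control DJ17 held the highest value for 11 of 40 members, against 11.7% of all genes, and knockout DJ15 for 10, against 30.9% of all genes, which is no more than its share of the whole table. Knockout DJ18 held the lowest value for 11 of 40 members, against 14.5% of all genes. Control DJ17 was also the library with the highest myelin sum, at 12988 CPM. In cortex 7 microglial markers summed to 303 to 357 CPM in DJ1, DJ2 and DJ3 and to 260 to 280 CPM in the other libraries. The sums of 6 astrocyte markers were 2077 to 2213 CPM and 1759 to 1907 CPM. Neither sum set DJ15, DJ16 and DJ17 apart in hippocampus. The part of these marker differences in the members' levels was not tested.

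**Figure D2:**
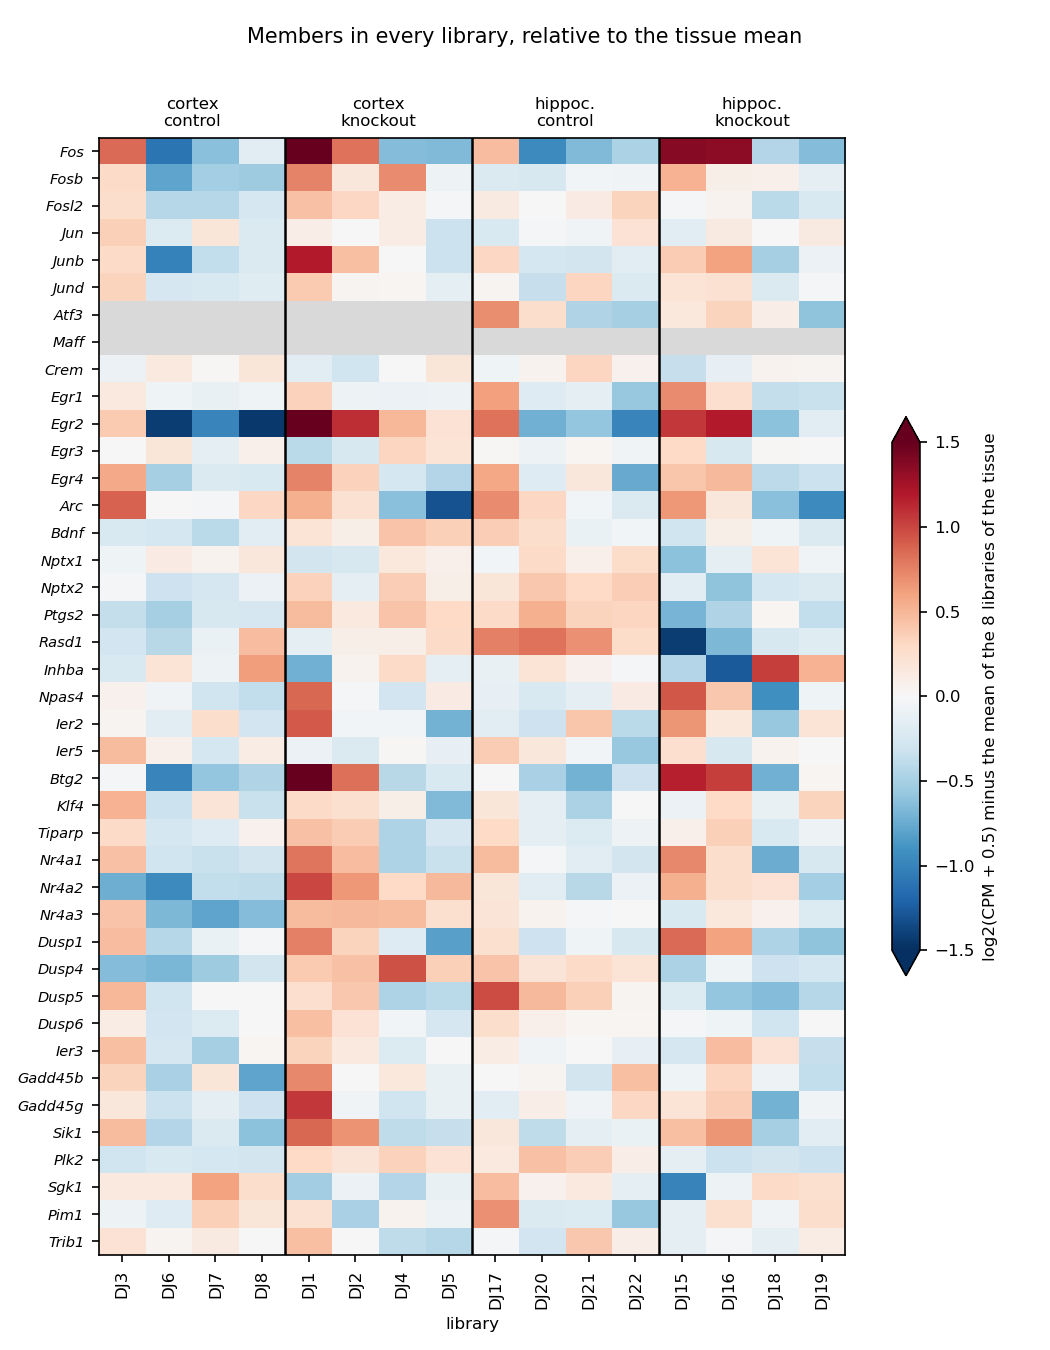
Colour gives log2(CPM + 0.5) of each member (rows, by role) in each library (columns) minus the mean over the 8 libraries of its tissue; grey marks members with a mean under 0.5 CPM. Red fills many rows of DJ1 to DJ3 and of DJ15 to DJ17 in both genotypes, while Plk2 and Ptgs2 in both tissues, and Rasd1 in hippocampus, change colour with genotype instead. In knockout DJ15 only 20 of 40 members were above the median of their tissue, against 65.35% of all genes.

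The hippocampal comparison asks how these genes stood with a knockout described as one of pyramidal neurons, in a structure that spatial learning needs. The members that fell were Plk2, Ptgs2, Rasd1, Nptx2 and Dusp5, which encode effectors and signalling proteins. With limma on log2(CPM + 0.5) and Benjamini-Hochberg adjustment over 13899 genes at 0.05, 5 of 40 measured members were lower, against 0.719% of all genes. None was higher with limma, against 0.662% of all genes, 0 at an unadjusted p under 0.05, and 0 with edgeR or DESeq2. The knockout and control values did not overlap for 7 members that were lower (the 5 called and Dusp4 and Dusp6), against 2.69% of all genes, and for 0 that were higher, against 5.32% of all genes. Over the 40 members the median log2 difference was 0.01, against 0.06 over all genes. After median-of-ratios rescaling the all-gene calls split into 60 higher and 135 lower in place of 92 and 100, and the members into 0 and 6. The sums of pyramidal and of cortical neuron markers, given above, differed by genotype in the same libraries, and their part in these falls was not tested.

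Rasd1, a small Ras-related GTPase named for its induction by dexamethasone and linked to nitric oxide signalling below the NMDA receptor, had the largest fall. Its level was 28.0, 29.1, 26.5 and 19.8 CPM in controls and 5.79, 10.1, 13.8 and 14.4 CPM in knockouts. All 4 knockouts were below all controls, and DJ15 was the lowest. The mean went from 25.9 ± 4.15 to 11.0 ± 3.97 CPM (SD, n = 4 each), a log2 difference of -1.26 (SE 0.24, limma adjusted p = 0.026).

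Dusp5, a nuclear MAP kinase phosphatase, stood at 19.6, 13.8, 12.6 and 9.99 CPM in controls and at 8.39, 6.34, 5.99 and 7.11 CPM in knockouts. The groups did not overlap, and control DJ17 was highest. Its log2 difference was -0.93 (SE 0.19, limma adjusted p = 0.035). In the annotation 22.1% of the exonic bases of Dusp5 overlap a gene on the opposite strand, and the sources used here do not state whether counting used strand.

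Ptgs2, which encodes the inducible cyclooxygenase (COX-2) that pyramidal neurons make on synaptic activity, stood at 58.1, 69.0, 60.1 and 59.4 CPM in controls and at 29.1, 34.7, 48.7 and 36.6 CPM in knockouts. No knockout reached a control. Knockouts differed from controls by -0.74 on the log2 scale (SE 0.13, limma adjusted p = 0.019).

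Nptx2, the neuronal pentraxin that clusters AMPA receptors at excitatory synapses on interneurons, stood at 10.8, 12.7, 11.7 and 12.3 CPM in controls and at 8.39, 6.05, 7.82 and 8.04 CPM in knockouts. Both groups were tight and did not overlap. The fitted log2 difference was -0.62 (SE 0.13, limma adjusted p = 0.041).

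Plk2, a polo-like kinase that lowers synaptic strength after sustained activity, stood at 178, 218, 208 and 172 CPM in controls and at 146, 128, 133 and 129 CPM in knockouts. The highest knockout, DJ15, was below the lowest control, DJ22. The log2 difference was -0.53 (SE 0.08, limma adjusted p = 0.0093). It has the full cAMP response element in the window printed above.

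Leaving out control DJ17 and knockouts DJ15 and DJ16 gave 4 called members among 1.83% of all genes: Plk2 (-0.60, limma adjusted p = 0.021), Rasd1 (-0.80, 0.044), Dusp5 (-0.83, 0.049) and Arc (-0.81, 0.045), while Ptgs2 (-0.57, 0.055) and Nptx2 (-0.60, 0.058) missed the threshold. The libraries left out were picked from the members' own values, so these p-values are descriptive. Single libraries decided these calls. The count was 0 without knockout DJ16 (0.453% of all genes called) and 1 (Plk2) without control DJ20 (0.403%) or control DJ21 (0.654%). It was 2 without knockout DJ19 (0.591%), 3 without knockout DJ18 (1.9%) and 4 without control DJ22 (1.14%). Over all 8 libraries 1.38% of genes were called, so calls over all genes fell too in most of these fits. The limma adjusted p reached 0.13 for Dusp5, 0.17 for Nptx2, 0.11 for Rasd1, 0.091 for Ptgs2 and 0.051 for Plk2.

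Among the rapid genes in hippocampus, Fos had a log2 difference of 0.81 (SE 0.46, limma adjusted p = 0.47), with means of 5.93 ± 3.08 and 12.3 ± 8.54 CPM (SD, n = 4). Without the 3 lowest-numbered libraries it was 0.15. Btg2, an antiproliferative transcriptional cofactor, stood at 12.4, 8.77, 7.42 and 9.99 CPM in controls and at 28.7, 26.1, 7.40 and 12.7 CPM in knockouts, so that DJ15 and DJ16 were the 2 high libraries. Its log2 difference was 0.76 (SE 0.35, limma adjusted p = 0.37) and 0.16 without those libraries. The authors' deposited table for hippocampus, of 243 called genes beside 21999 in the expression table, lists both as higher, Btg2 by 0.88 and Fos by 0.98 (log2). It lists Dusp5, Plk2, Ptgs2 and Rasd1 as lower, by -1.07, -0.59, -0.78 and -1.28.

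Egr1, a zinc finger factor widely used as a marker of active neurons, stood at 123, 70.1, 73.1 and 54.0 CPM in controls and at 131, 95.6, 62.4 and 63.5 CPM in knockouts. The genotypes overlapped fully, with a log2 difference of 0.13 (SE 0.26, limma adjusted p = 0.87). Junb, an AP-1 subunit, stood at 14.1, 9.31, 9.23 and 9.92 CPM in controls and at 14.8, 17.3, 7.82 and 10.5 CPM in knockouts, a difference of 0.19 (SE 0.22, limma adjusted p = 0.75). Again the 3 lowest-numbered libraries were the highest in both genes.

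Arc, whose protein drives AMPA receptor endocytosis and forms capsid-like particles, stood at 49.4, 37.4, 29.2 and 25.7 CPM in hippocampal controls and at 47.2, 33.8, 19.3 and 15.2 CPM in knockouts. The genotypes overlapped over all 8 libraries (log2 difference -0.38, SE 0.31, limma adjusted p = 0.63), but among DJ18 to DJ22 both knockouts were below the 3 controls. Npas4, a neuron-specific factor that responds to calcium influx, stood at 5.43, 5.01, 5.38 and 6.55 CPM in controls and at 11.8, 8.07, 2.91 and 5.69 CPM in knockouts. The knockouts held both the highest and the lowest value (0.18, SE 0.31, limma adjusted p = 0.85).

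Nr4a1, an orphan nuclear receptor, stood at 13.8, 9.67, 8.65 and 7.96 CPM in hippocampal controls and at 16.4, 11.8, 5.66 and 8.18 CPM in knockouts, with a log2 difference under 0.01 in size (SE 0.27). Bdnf, the neurotrophin of excitatory synapses, stood at 83.5, 77.3, 60.0 and 62.7 CPM and at 52.3, 68.6, 61.9 and 55.4 CPM, a difference of -0.24 (SE 0.12, limma adjusted p = 0.39). Dusp4, a MAP kinase phosphatase of the nucleus, was at 12.5, 10.6, 11.3 and 10.7 CPM and at 6.50, 8.79, 7.32 and 7.54 CPM. Its groups did not overlap, yet its log2 difference of -0.56 (SE 0.13) had a limma adjusted p of 0.058. With edgeR, with DESeq2, after both rescalings and in 1 fit of all 16 libraries, Dusp4 passed the threshold.

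The remaining hippocampal members did not pass the threshold, and their log2 differences ran from -0.30 for Fosl2 and Nptx1 to 0.73 for Egr2. By role, 0 of 8 AP-1 and related factors, 0 of 4 EGR factors, 0 of 3 NR4A receptors and 0 of 6 other transcriptional regulators were called with limma, edgeR or DESeq2; at an unadjusted p under 0.05 there was 1, Fosl2, lower. Of 4 MAP kinase phosphatases 1 fell, of 5 kinases 1, and of 7 synaptic, secreted and signalling effectors 3, while 0 of 3 growth arrest and survival genes (Gadd45b, Gadd45g, Ier3) were called by any of the 3 tools or at an unadjusted p under 0.05. Maff was under 0.5 CPM on average in both tissues and Atf3 in cortex, and neither was tested there.

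**Figure D3:**
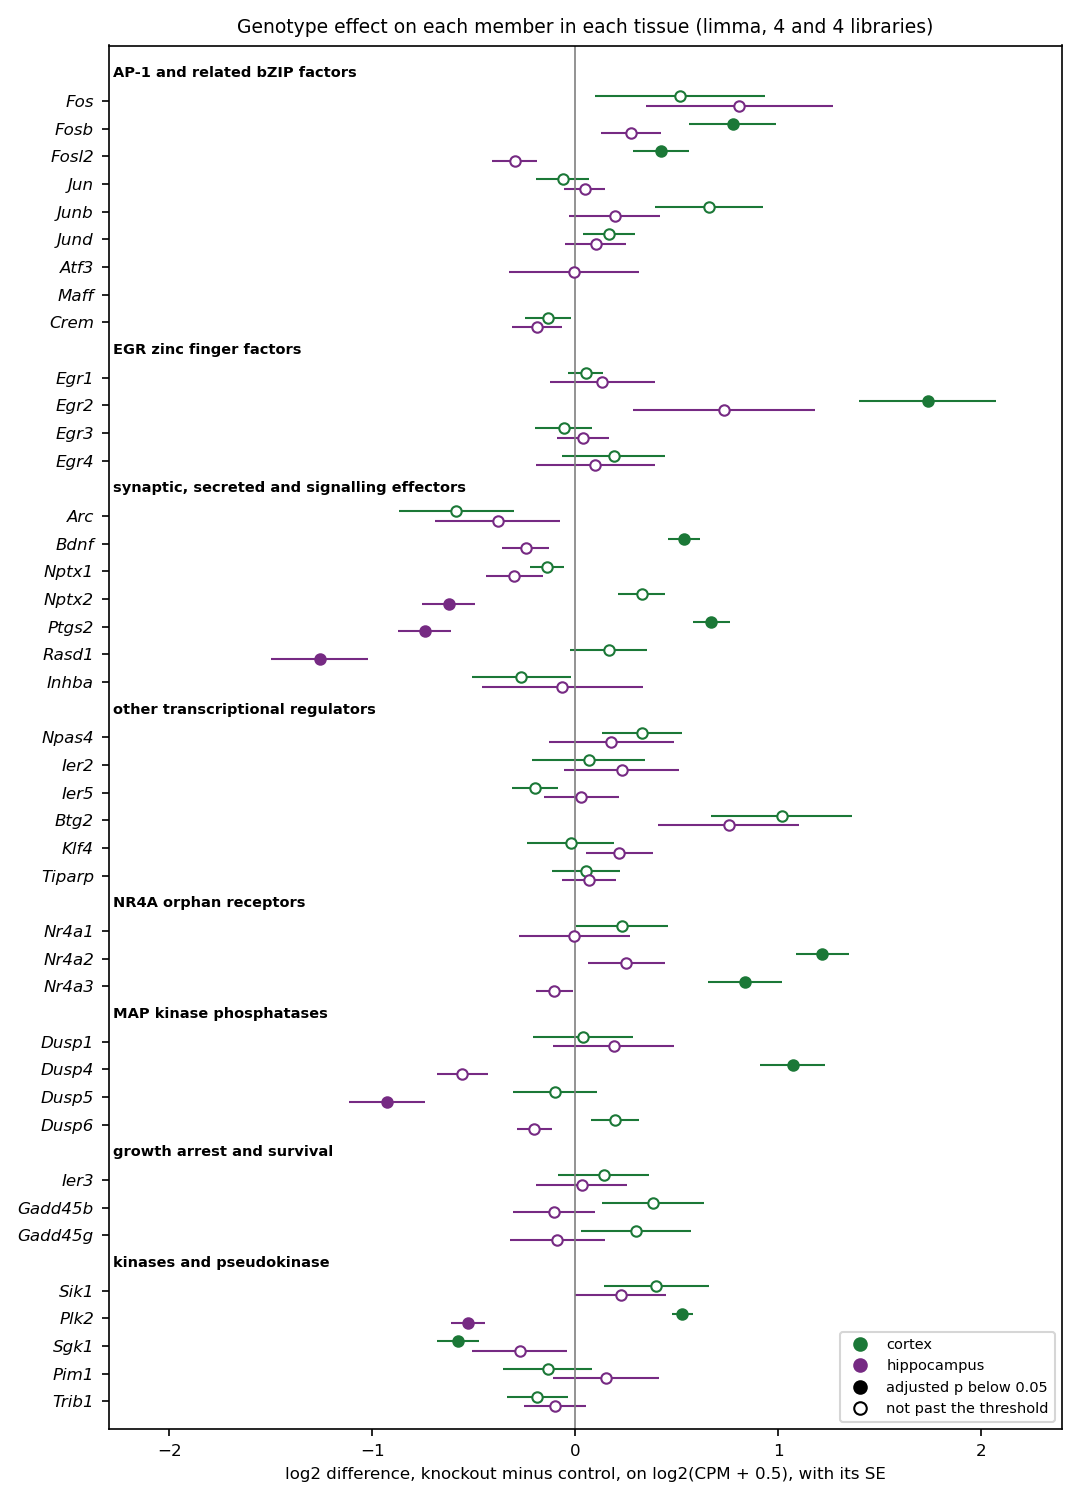
Log2 difference of knockout minus control (horizontal axis, log2(CPM + 0.5) scale) with its SE for each member by role, in cortex (green) and hippocampus (purple); filled points passed an adjusted p of 0.05 with limma. Plk2 and Ptgs2 have filled points on opposite sides of 0, at 0.53 and -0.53 and at 0.67 and -0.74.

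In cortex more members rose than fell, among them 2 that fell in hippocampus. With limma 9 of 39 measured members were higher in knockouts, against 7.64% of 13713 genes, and 1, Sgk1, was lower, against 5.83%. The 9 were Plk2, Nr4a2, Ptgs2, Dusp4, Bdnf, Egr2, Nr4a3, Fosb and Fosl2. The values did not overlap for 5 of them, Plk2, Nr4a2, Ptgs2, Dusp4 and Bdnf, against 10.3% of all genes, and for 1 that was lower, Sgk1, against 7.42% of all genes. The median log2 difference of the 39 was 0.19, against 0.03 over all genes. After median-of-ratios rescaling the all-gene calls were 829 higher and 951 lower in place of 1047 and 800, and the members 8 and 1. The sums of striatal, myelin and hippocampal subfield markers, given above, moved with genotype in the same libraries, and their part was not tested.

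Nr4a2, an orphan nuclear receptor that marks deep-layer cortical and claustral neurons as well as active ones, stood at 64.7, 55.5, 83.8 and 82.6 CPM in controls and at 218, 169, 133 and 152 CPM in knockouts. Every knockout was above every control. The mean rose from 71.7 ± 13.9 to 168 ± 36.3 CPM (SD, n = 4 each), a log2 difference of 1.22 (SE 0.13, limma adjusted p = 5.4e-06).

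Its relative Nr4a3 stood at 84.1, 39.1, 35.9 and 39.7 CPM in controls and at 87.0, 87.4, 86.6 and 74.0 CPM in knockouts. Control DJ3 lay within the knockouts, and the other 3 controls were below all of them. On the log2 scale it differed by 0.84 (SE 0.18, limma adjusted p = 0.0039), and 1.06 without DJ1 to DJ3. DESeq2 gave 0.72 with an adjusted p of 0.097. Nr4a1 stood at 32.3, 19.3, 18.8 and 19.6 CPM in controls and at 41.9, 32.8, 17.1 and 18.8 CPM in knockouts, with a difference of 0.23 (SE 0.23, limma adjusted p = 0.58).

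Egr2, a zinc finger factor of the Egr family, stood at 14.1, 3.65, 5.09 and 3.56 CPM in controls and at 34.3, 23.4, 15.3 and 12.4 CPM in knockouts. Only control DJ3 overlapped the knockouts. The log2 difference of 1.74 (SE 0.34, limma adjusted p = 0.0016) was the largest of any member in cortex, and it was 1.65 without DJ1 to DJ3. The other factors of the family did not pass: Egr1 stood at 245, 211, 205 and 212 CPM and at 282, 209, 209 and 210 CPM (0.05, SE 0.09, limma adjusted p = 0.77), Egr3 differed by -0.06 and Egr4 by 0.19.

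Dusp4 stood at 5.01, 4.87, 5.51 and 6.67 CPM in controls and at 10.8, 11.3, 16.4 and 10.6 CPM in knockouts. Every knockout was above every control, and DJ4 was the highest. The mean rose from 5.52 ± 0.82 to 12.3 ± 2.74 CPM (SD, n = 4 each), a log2 difference of 1.07 (SE 0.16, limma adjusted p = 0.00014). The other MAP kinase phosphatases, Dusp1, Dusp5 and Dusp6, differed by 0.04, -0.10 and 0.19 and did not pass.

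Ptgs2 stood at 28.8, 26.0, 31.4 and 31.1 CPM in controls and at 51.6, 40.9, 50.2 and 45.5 CPM in knockouts, with a log2 difference of 0.67 (SE 0.09, limma adjusted p = 5.2e-05). Bdnf stood at 55.5, 54.2, 49.0 and 57.6 CPM in controls and at 75.4, 69.0, 87.5 and 83.4 CPM in knockouts, a difference of 0.54 (SE 0.08, limma adjusted p = 0.00014). In neither gene did the genotypes overlap, and in neither were DJ1 and DJ2 jointly the highest. A gene on the opposite strand overlaps 14.4% of the exonic bases of Bdnf.

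Plk2 stood at 175, 183, 178 and 177 CPM in controls and at 264, 245, 272 and 250 CPM in knockouts. The controls were close to each other and every knockout was above all of them. Knockouts differed from controls by 0.53 on the log2 scale (SE 0.05, limma adjusted p = 1.5e-06), the smallest p of any member in this comparison.

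Of the AP-1 genes, Fosb, which gives rise to the long-lived isoform ΔFosB, stood at 14.2, 6.42, 7.91 and 7.78 CPM in controls and at 19.7, 13.0, 19.2 and 10.9 CPM in knockouts, a log2 difference of 0.78 (SE 0.21, limma adjusted p = 0.020). Fosl2 stood at 35.9, 22.02, 22.05 and 25.0 CPM and at 40.7, 37.1, 32.2 and 29.6 CPM (0.42, SE 0.14, limma adjusted p = 0.049). In each, control DJ3 lay among the knockouts and the other 3 controls were below all 4. Both calls rested on single libraries: without control DJ6, DJ7 or DJ8 or knockout DJ1 or DJ4 the adjusted p was 0.058 to 0.081 for Fosb and 0.055 to 0.15 for Fosl2, which was also 0.12 without knockout DJ2 and missed the threshold with edgeR (0.075) and DESeq2 (0.061).

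Fos itself differed by 0.52 (log2) in cortex (SE 0.42, limma adjusted p = 0.49) and by -0.03 without DJ1 to DJ3. Junb stood at 21.4, 8.41, 13.4 and 15.0 CPM in controls and at 40.6, 24.1, 17.5 and 14.0 CPM in knockouts, with a difference of 0.66 (SE 0.27, limma adjusted p = 0.12), and passed without control DJ3 (0.86, adjusted p = 0.033) or without knockout DJ5 (0.88, 0.034). Btg2 stood at 11.6, 5.64, 7.63 and 8.45 CPM and at 43.2, 21.2, 8.66 and 9.93 CPM. DJ1 and DJ2 were again its 2 high libraries, and DJ4 and DJ5 were above every control but DJ3. Its log2 difference was 1.02 (SE 0.35, limma adjusted p = 0.062). It passed with edgeR, and with limma without control DJ3, knockout DJ4 or knockout DJ5. Without DJ1 to DJ3 the difference was 0.35 with a limma adjusted p of 0.25.

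Sgk1, a kinase induced by glucocorticoids as well as by activity and abundant in oligodendrocytes, was lower: 103, 103, 141 and 112 CPM in controls and 64.7, 87.3, 68.5 and 86.2 CPM in knockouts, with no overlap. The fitted log2 difference was -0.58 (SE 0.11, limma adjusted p = 0.0010). In 1 fit of all 16 libraries the adjusted p was 0.076. The myelin sum was lower in the same 4 libraries, and its part in Sgk1 was not tested.

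Arc and Npas4 did not pass in cortex. Arc stood at 118, 63.8, 62.5 and 78.8 CPM in controls and at 92.6, 74.6, 41.005 and 25.4 CPM in knockouts. Knockouts DJ4 and DJ5 were below every control, and DJ1 and DJ2 within their range. The log2 difference was -0.59 (SE 0.28, limma adjusted p = 0.20) over all 8 libraries and -0.86 (limma adjusted p = 0.033) without knockout DJ1. Without DJ1 to DJ3 it was -1.06 (SE 0.13, limma adjusted p = 4e-06). DJ1 to DJ3 were picked from the members' own values, so results without them are descriptive. Npas4 stood at 9.19, 8.41, 7.07 and 6.67 CPM and at 16.4, 8.58, 7.08 and 9.60 CPM (0.33, SE 0.20, limma adjusted p = 0.33). Without DJ1 to DJ3 the count of called members in cortex was 13 among 14.2% of all genes: the same 10 and, in addition, Arc and Trib1 (-0.46) lower and Nptx2 (0.44) higher.

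The remaining cortical members, from Jun and Jund to Klf4, Tiparp, Ier2, Ier3, Ier5, Sik1, Pim1, Trib1, Gadd45b, Gadd45g, Crem, Inhba, Nptx1, Nptx2 and Rasd1, had log2 differences between -0.27 for Inhba and 0.40 for Sik1. Nptx2 was the nearest to the threshold (0.33, SE 0.12, limma adjusted p = 0.072), at 24.2, 19.6, 20.5 and 23.0 CPM in controls and 31.2, 22.1, 31.6 and 26.0 CPM in knockouts. Rasd1 was low in cortex, at 4.04, 3.65, 4.66 and 7.12 CPM in controls and 4.53, 5.39, 5.37 and 6.22 CPM in knockouts, and differed by 0.16 (SE 0.19). Dusp5 stood at 10.2, 5.64, 7.07 and 7.12 CPM and at 8.52, 9.56, 5.00 and 5.24 CPM. Jund shares 52.6% of its exonic bases with a gene on the opposite strand, so that its value is uncertain. The authors' deposited table for cortex holds 874 called genes, beside 21999 in the expression table, and lists 13 of the 41 members. Bdnf, Btg2, Dusp4, Egr2, Fos, Fosb, Junb, Nr4a2, Nr4a3, Plk2 and Ptgs2 are listed as higher and Arc and Sgk1 as lower. Their log2 values run from -0.61 for Sgk1 to 1.66 for Egr2.

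The knockout effects in the 2 tissues were compared directly, as the hippocampal minus the cortical log2 difference in 1 limma fit of 16 libraries. In 7 of 40 members the effect was lower in hippocampus, against 1.55% of 13881 genes, and in 0 it was higher with limma, against 1.17% of all genes, with 0 at an unadjusted p under 0.05 and 0 with edgeR or DESeq2. The 7 were Plk2, Ptgs2, Dusp4, Nptx2, Bdnf, Rasd1 and Nr4a3, that is 4 of the 7 synaptic, secreted and signalling effectors, 1 kinase, 1 phosphatase and 1 NR4A receptor. Both genotype comparisons enter this difference, so it is no separate evidence for either. The effects differed on the log2 scale by -1.06 for Plk2 (SE 0.10, limma adjusted p = 2.6e-06), by -1.41 for Ptgs2 (SE 0.17, 5.3e-05), and by -1.63 for Dusp4 (SE 0.21, 9e-05). They differed by -0.95 for Nptx2 (SE 0.18, 0.0049), by -0.78 for Bdnf (SE 0.15, 0.0059), by -1.42 for Rasd1 (SE 0.32, 0.018) and by -0.94 for Nr4a3 (SE 0.25, 0.047).

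Plk2 and Ptgs2 passed in both tissues with opposite signs. Dusp4, Bdnf and Nr4a3 passed in cortex, and Rasd1 and Nptx2 in hippocampus. Nptx2 (chr5:144545902-144557478), Rasd1 (chr11:59963181-59964944), Dusp4 (chr8:34807297-34819894) and Bdnf (chr2:109674700-109727007) are located here on GRCm38 by the GENCODE annotation. Without the 3 lowest-numbered libraries of each tissue, which were picked from the members' own values, 9 members differed, among 5.58% of all genes. Of the 7, 6 passed again and Rasd1 did not (-0.997, adjusted p = 0.075), while Egr2, Fosl2 and Sgk1 were added, Sgk1 with the opposite sign (0.85). Nr4a3 passed over all 16 libraries by a small margin and failed in 13 of the 16 fits that left out 1 library, with adjusted p from 0.05 to 0.11. It also missed the threshold with edgeR (0.077) and DESeq2 (0.11), and Rasd1 missed it with edgeR (0.052). The other 5 passed with limma, edgeR and DESeq2 and in every fit that left out 1 library.

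**Figure D4:**
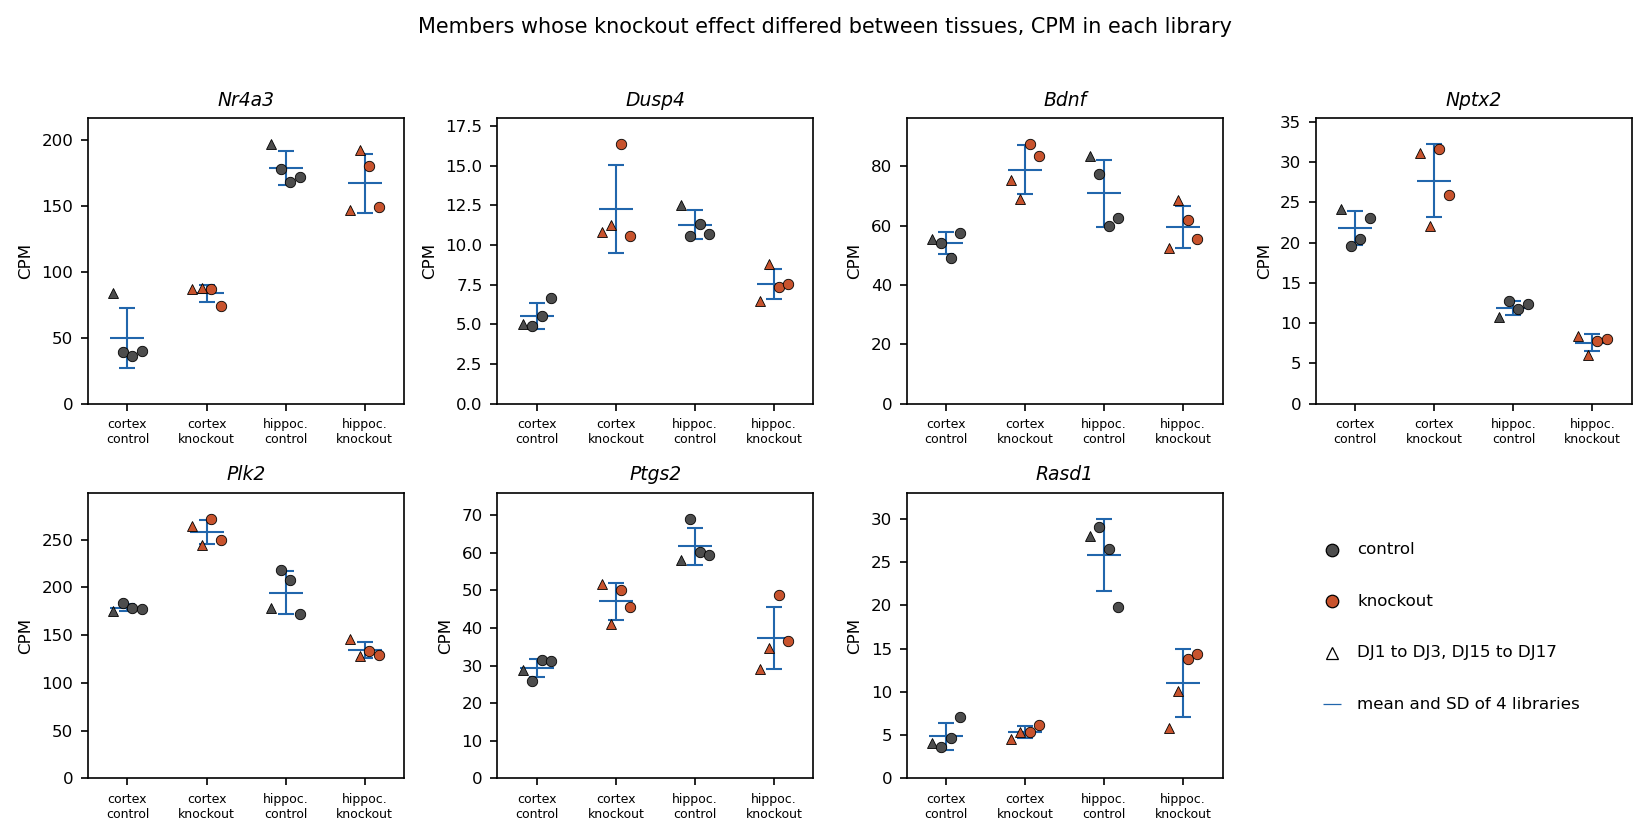
Level in CPM (vertical axis, linear from 0) in each library for the 7 members whose knockout effect differed between tissues; circles and triangles are libraries, triangles being DJ1 to DJ3 and DJ15 to DJ17, and blue bars the mean and SD of 4 libraries. Plk2 rises from 178 to 258 CPM in cortex and falls from 194 to 134 CPM in hippocampus, and Ptgs2 from 29.3 to 47.1 CPM and from 61.7 to 37.2 CPM.

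In control mice the members were not evenly expressed in the tissues, and several of the 7 started from different levels. With limma 12 of 39 members were higher in hippocampus than in cortex, against 20.9% of 13823 genes, and 14 were lower, against 16.9% of all genes. Rasd1 had the largest excess in hippocampus, 25.9 ± 4.15 against 4.87 ± 1.56 CPM (log2 difference 2.32, SE 0.18, limma adjusted p = 5e-07), followed by Nr4a3 at 179 ± 12.8 against 49.7 ± 23.0 CPM (1.93, SE 0.20, 6.7e-06). Ptgs2 (1.06), Jun (1.05), Dusp4 (0.98) and Dusp5 (0.85) were also higher in hippocampus. Among the lower members were Ier5 (-1.64), Egr1 (-1.504), Trib1 (-1.21), Arc (-1.17), Nr4a1 (-1.12), Egr3 (-0.99), Dusp1 (-0.93) and Nptx2 (-0.85). Egr1 was at 80.1 ± 29.8 CPM in control hippocampus and 218 ± 17.9 CPM in control cortex, with no overlap.

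In knockout mice 3 of 40 members were higher in hippocampus, against 20.5% of all genes, namely Jun, Nr4a3 and Rasd1, and 17 were lower, against 14.1% of all genes. The tissue difference of Rasd1 was 0.90 in knockouts, in place of 2.32 in controls, and that of Dusp4 -0.65 in place of 0.98. Ptgs2 went from 1.06 to -0.35 and Bdnf from 0.38 to -0.40, while Plk2 went from 0.12, which did not pass (limma adjusted p = 0.24), to -0.94. The 2 tissue comparisons use the same libraries as the genotype comparisons, and the change between them is the difference tested above. The value for Ptgs2 in knockouts was a narrow call (limma adjusted p = 0.049), and it was -0.18 (0.33) in DJ4, DJ5, DJ18 and DJ19. Crem, also called in knockouts (-0.40, limma adjusted p = 0.030), missed the threshold without knockout DJ4 (0.076), DJ5 (0.11), DJ15 (0.072) or DJ16 (0.066). Without the 3 lowest-numbered libraries of each tissue, 26 members were called in controls, 12 higher and 14 lower, among 38.7% of all genes; Ier2, Jund and Npas4 no longer passed and Egr2, Fos and Pim1 did. In knockouts 25 were then called, 6 higher and 19 lower, among 30.5% of all genes, with Arc, Dusp1, Fos, Npas4, Nptx1, Sgk1 and Tiparp added and Ier3 and Ptgs2 lost.

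The signalling genes above these members changed in cortex in both directions. Of 28 measured genes that carry calcium and cAMP to CREB, 6 rose and 5 fell in cortex, and 1 rose and 1 fell in hippocampus. Over all genes 7.64% rose and 5.83% fell in cortex, and 0.662% rose and 0.719% fell in hippocampus. In cortex Camk2d, a calmodulin-dependent kinase subunit, rose from 149 ± 12.3 to 265 ± 13.2 CPM (log2 difference 0.83, limma adjusted p = 8.7e-08), while Camk2g fell from 238 ± 11.9 to 166 ± 5.83 CPM (-0.51, 3.1e-06) and Camk4, the kinase that phosphorylates CREB in the nucleus, fell from 1125 ± 78.5 to 799 ± 61.1 CPM (-0.49, 1.6e-05; SD, n = 4). In hippocampus Prkar2b, a regulatory subunit of protein kinase A, rose (0.56, limma adjusted p = 0.0072) and Camk2b fell (-0.35, 0.016). Of 29 measured genes of the MAP kinase path to SRF and MEF2, 8 rose and 3 fell in cortex, among those that rose Mapk3, a MAP kinase, from 46.4 ± 3.51 to 80.5 ± 6.54 CPM (log2 difference 0.79, limma adjusted p = 1.5e-06; SD, n = 4), and Mef2c (0.34, 0.00028). In hippocampus 1 fell, Mapk10, a JNK kinase (-0.35, limma adjusted p = 0.017), and 0 rose with limma or edgeR, 1 with DESeq2 and 3 at an unadjusted p under 0.05. Without DJ1 to DJ3, 7 of the 28 genes rose and 4 fell in cortex, and 12 of the 29 rose and 3 fell, among 14.2% of all genes called. Without DJ15 to DJ17, Prkar2b and Mapk10 passed in hippocampus and Camk2b did not.

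Other activity-regulated genes, listed apart from the 41, were counted in the same fits, in which 7.64% of all genes rose and 5.83% fell in cortex. There 4 of 27 measured early genes rose and 0 fell with limma; lower were 2 at an unadjusted p under 0.05, 0 with edgeR and 1 with DESeq2. The 4 that rose were Pcdh8, a protocadherin induced by activity (from 11.4 ± 0.50 to 27.3 ± 3.49 CPM, log2 difference 1.22, limma adjusted p = 6e-07), Rgs2 (0.68, 2.6e-06), Vgf (0.39, 0.0037) and Arf4. In hippocampus 0 of 27 passed with limma or edgeR, 1 with DESeq2, and 2 at an unadjusted p under 0.05. Of 25 late and secreted genes measured in cortex 9 rose and 4 fell, led by Sorcs3, a sorting receptor (from 67.2 ± 0.92 to 119 ± 6.24 CPM, 0.82, limma adjusted p = 5.6e-08), with Nefm (-0.82, 8.6e-08) and Nrn1 (-0.66, 1.6e-06) lower. Penk and Tac1, called on this list too, and Ppp1r1b on the CREB list are also among the striatal markers. In hippocampus 1 of 24 fell, Sorcs3 again (-0.59, limma adjusted p = 0.010), and 0 rose with any of the 3 tools, with 2 at an unadjusted p under 0.05; the knockout effect on Sorcs3 differed between tissues by -1.41, in the same direction as that on Plk2. Without DJ1 to DJ3, 7 early genes rose and 1 fell in cortex, among 14.2% of all genes called. In that fit 9 late and secreted genes rose and 4 fell.

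Genes responsive to glucocorticoids, the hormones of stress, are given because Sgk1 and Rasd1 respond to these hormones too. The list also holds the receptor genes Nr3c1 and Nr3c2. Of 17 measured, 1 rose and 5 fell in cortex, against 7.64% and 5.83% of all genes. Among those that fell were Tsc22d3 (from 74.1 ± 10.9 to 45.4 ± 9.48 CPM, log2 difference -0.72, limma adjusted p = 0.00094) and Klf9 (-0.44, 0.0022). The 1 that rose was Nr3c2, the mineralocorticoid receptor gene (0.46, limma adjusted p = 7.6e-05). In hippocampus 0 passed with limma, edgeR or DESeq2, while 5 were lower and 0 higher at an unadjusted p under 0.05; the median log2 difference of the list was -0.33, against 0.06 over all genes. Without DJ1 to DJ3, 1 rose and 7 fell in cortex, among 14.2% of all genes called. Of the FOXP family Foxp2 rose in cortex (0.37, limma adjusted p = 0.014), but did not pass without DJ1 to DJ3. The part of any of these genes in the members' levels was not tested.

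The authors' deposited overlap lists name members in another Foxp1 model. Their list of genes lower in heterozygous Foxp1 knockouts, of which 692 are among the 21999 genes of the expression table, holds 13 of the 41 members: Arc, Bdnf, Dusp5, Dusp6, Gadd45b, Inhba, Junb, Nptx1, Nptx2, Nr4a1, Nr4a3, Plk2 and Ptgs2. Their list of higher genes, with 617 of the 21999, holds 0. The sources used here do not state its tissue. Their list of genes shared by the heterozygous and the hippocampal lower genes, 68 in all, holds Dusp5, Plk2 and Ptgs2. A list of 174 genes changed at 5 h after tetanization, an electrical stimulus that strengthens hippocampal synapses, holds Dusp5 and Rasd1. None of these counts was tested against the share of the 21999 genes that each list covers.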

How the data were processed

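Poly(A) RNA of 16 mouse samples, 4 in each group, was sequenced by the submitters on an Illumina NextSeq, per the labels' protocols. The authors deposited a table of CPM for 21999 genes. The submitters' processing notes name STAR, HTSeq, edgeR and the builds mm10 and GRCm38; the sources used here state no version, annotation or strand of counting. In each deposited CPM column 100% of the values were whole multiples of 1 read, within 0.001 reads. No column belonged to an unlisted sample. Per the file headers, 2 further tables that the authors deposited hold log2 fold changes with adjusted p-values, 1 table per tissue, and others hold lists of gene symbols.

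Linear models were fitted here in limma 3.58.1 (R 4.3.3, eBayes with trend) to log2(CPM + 0.5). Genes entered at an average of 0.5 CPM or more, with Benjamini-Hochberg adjustment over all genes tested and a threshold of 0.05. This scale understates changes of genes with few reads. Each genotype and tissue comparison used its own 8 libraries, and the difference between tissues all 16. Groups were taken from the titles; the design text calls the replicates independent. As alternatives, the recovered reads were tested with edgeR 4.0.16 (quasi-likelihood), which called 190 genes in hippocampus, 1794 in cortex and 354 for the difference between tissues, and with DESeq2 1.42.0; other alternatives were pseudocounts, minimums, scalings, 1 fit of all 16 libraries and leaving out each library. Leaving out DJ1 to DJ3 and DJ15 to DJ17, and a block that joins title numbers 14 apart, were added after the data were seen. The fits were tested on simulated counts. Members and lists were chosen with earlier results of these data known, so no p was adjusted over a list. All members are accounted for: those called by genotype or in the difference, and Fos, Egr1, Arc, Npas4, Nr4a1, Junb and Bdnf, have every library's value, others are ranges or were singled out after their values were seen (Btg2, Dusp4 and Nptx2 in both tissues). From each companion list, up to 3 called genes with the smallest p per tissue are named. Exon overlaps are from GENCODE M21 and promoters from RefSeq. Not every gene that the naming rule picks is reported here.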

Additional observations from a re-analysis of the deposited data

Results flagged for a closer look

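Among 159 combinations of member and group, 7 held a library whose gap to the others exceeded Dixon's 95% critical value for 4 samples. Chance gives about 1 in 20, and 7 of 159 is no more than that. In cortical controls DJ3 stood above the other 3 for Jund (40.8 CPM, others 27.0 to 28.5), Nr4a1 (32.3 CPM, others 18.8 to 19.6) and Nr4a3 (84.1 CPM, others 35.9 to 39.7). In cortical knockouts DJ1 was high for Egr1 (282 CPM, others 209 to 210), DJ4 was high for Dusp4 (16.4 CPM, others 10.6 to 11.3) and DJ5 was low for Nr4a3 (74.0 CPM, others 86.6 to 87.4). In hippocampal controls DJ17 was high for Junb (14.1 CPM, others 9.23 to 9.92). Of these 7 values, 5 were high ones in DJ1, DJ3 or DJ17, which had already been noticed from the members' values.

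The knockout effect differed between tissues, by the limma interaction contrast, for 7 members: Bdnf (-0.78, log2, hippocampus minus cortex), Dusp4 (-1.63), Nptx2 (-0.95), Nr4a3 (-0.94), Plk2 (-1.06), Ptgs2 (-1.41) and Rasd1 (-1.42).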

How the results depend on the processing

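Leaving out 1 library gave 0 to 5 called members for genotype in hippocampus (5 over all libraries) and 8 to 13 in cortex (10). It gave 6 to 8 for the difference between tissues (7), 22 to 30 for tissue in controls (26) and 17 to 24 in knockouts (20). The shares of all genes called in these fits were, in the same order, 0.403% to 2.12%, 10.1% to 14.1%, 1.79% to 5.04%, 32.3% to 38.1% and 28.9% to 36.6%. The log2 difference of Foxp1 stayed between -1.05 and -0.82 in hippocampus and between -1.46 and -1.26 in cortex. With no expression minimum, 3 members (Plk2, Ptgs2, Rasd1) were called in hippocampus; more genes are then tested, and the cause was not tested further. With DESeq2 435 genes were called in hippocampus in place of 192.

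Signs changed only for members that had not passed the threshold. Without the 3 lowest-numbered libraries, Egr1 in hippocampus was -0.0497, Npas4 -0.41 and Junb -0.0598, and in cortex Fos was -0.0289 and Nr4a1 -0.10. Leaving out 1 library gave a range of -0.24 to 0.24 for Nr4a1 in hippocampus (above 0 without control DJ17 or knockout DJ18 or DJ19), -0.0776 to 0.36 for Egr1 (below 0 without control DJ22 or knockout DJ15), -0.10 to 0.52 for Npas4 (below 0 without knockout DJ15) and, in cortex, -0.05585 to 0.11 for Egr1 (below 0 without knockout DJ1). The cause was not tested. No title number is shared between groups, but each hippocampal number is a cortical number of the same genotype plus 14, and the labels do not say whether such libraries share a mouse. Deviations from the group means, over 13881 genes, correlated at -0.02 to 0.16 in these 8 pairs, over 0.1 in 3 of them. Of the 8 cortical libraries, 4 correlated best with the hippocampal one 14 above. Correlations with other hippocampal libraries reached 0.17, above the highest of the pairs. Whether 4 of 8 is more than chance gives was not tested. With that pairing as a replicate block, chosen after the data were seen, the 7 members called for the difference between tissues remained called and Egr2, Fosl2 and Nr4a2 were added (10), while the counts for tissue were 28 in controls and 29 in knockouts.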
